A study of Mus musculus with 17 samples.

Results

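The genes described here are the 10 of the MHC class I presentation pathway, H2-K1, H2-D1, B2m, Tap1, Tap2, Tapbp, Erap1, Calr, Pdia3 and Nlrc5, chosen by gene name from 47069 genes listed in the count tables. They were measured by RNA sequencing in 17 libraries of mouse fetal liver cells. In every group the cells came from embryos of E12.5 to E13.5 on a B6J.129(Cg) background with the allele Gt(ROSA)26Sortm1.1(CAG-cas9*,-EGFP) of the line Fezh/J, which expresses the nuclease Cas9 together with EGFP. In 5 groups the cells carried sgGata1, a guide against Gata1, and bear the label Gata1s, which names a shortened GATA1 protein (a transcription factor of blood cells). Their second transgene was LUC (3 libraries) or Arid3a (3), with doxycycline at 1 µg/mL for 48 h, or sh-ctrl (3), shArid3a (2, numbered 1 and 3) or miR-125b (3), with doxycycline at 1 µg/mL for 10 days. The WT group (3) carried sgLuc and shLuc and had no treatment. An shArid3a library numbered 2 was not analysed here. The labels give neither the promoters of the transgenes nor whether libraries of a group came from separate embryos or cultures, so p-values measure the spread between these libraries, which may be technical.

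MHC class I molecules show fragments of a cell's own proteins at its surface, where cytotoxic T cells read them. H2-K1 and H2-D1 encode the classical heavy chains of the mouse, and B2m encodes the invariant light chain. Peptides from the proteasome are carried into the endoplasmic reticulum (ER) by the transporter that Tap1 and Tap2 form. There Erap1 trims them, and tapasin (Tapbp), calreticulin (Calr) and the oxidoreductase ERp57 (Pdia3) hold the empty molecule in the loading complex. Nlrc5 is a transcriptional activator of class I genes. Mouse platelets and their precursors, megakaryocytes, also carry class I molecules. ARID3A is a DNA-binding protein and miR-125b is a microRNA of the blood system.

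Class I promoters are textbook examples of a shared control region, with a kappa B element, an interferon response element, and a module that holds a cyclic AMP response core (TGACG) and a Y box (ATTGG). The stretches below, of 110 bases each, are shown because H2-K1 and H2-D1 had the closest profiles of any pair of members across the libraries. They are the reference sequence of RefSeq on GRCm38.p6, the patch release of the build of the count tables, at chr17:34000354-34000463 (minus strand) for H2-K1, chr17:35262918-35263027 (plus) for H2-D1 and chr2:122147534-122147643 (plus) for B2m. All lie upstream of the RefSeq start site used for the window. For H2-D1 that site is inside the gene as the count tables give it, so its stretch overlaps the stated gene. Capitals mark, on either strand, the kappa B letters (GGGA, any base, T, any base, CCC), GAANNGAAA (interferon response), TGACG and ATTGG.
H2-K1: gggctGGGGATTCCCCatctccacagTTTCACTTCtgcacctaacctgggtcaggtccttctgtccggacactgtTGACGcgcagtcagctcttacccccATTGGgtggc
H2-D1: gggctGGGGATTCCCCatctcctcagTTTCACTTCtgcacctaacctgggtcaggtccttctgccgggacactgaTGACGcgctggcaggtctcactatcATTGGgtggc
B2m: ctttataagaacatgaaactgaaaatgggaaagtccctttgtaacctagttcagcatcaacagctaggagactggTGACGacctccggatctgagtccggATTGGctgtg
In all 3 stretches 20 bases lie between TGACG and ATTGG. This spacing, sought after the matches were seen, was found in 27 of 27025 genes with a RefSeq promoter window of the same length (250 bases before to 50 after the start), which is 0.0999%. TGACG alone was in 23% of these genes and ATTGG in 41.1%. Of the 8 members with a window, 5 held TGACG (H2-K1, H2-D1, B2m, Tap1 and Pdia3) and 7 held ATTGG (all but Erap1). The kappa B letters were in 1.26% of genes and the interferon response letters in 8.68%, and among the members each was in H2-K1 and H2-D1. The interferon response letters have a fixed spacing, and other spacings were not sought. They therefore miss gaaactgaaa in the B2m stretch and tttcactttc in the Erap1 window. A member without a match is not shown to lack an interferon response element.

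Calr, the chaperone member, held the ER stress element (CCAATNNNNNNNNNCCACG), which was in 0.137% of genes and whose first letters are also a Y box. It is shown at chr8:84847055-84847113 (minus strand) with the element in capitals, since Calr is measured below beside the other ER folding genes.
Calr: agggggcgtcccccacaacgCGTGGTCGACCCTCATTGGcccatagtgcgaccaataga
Letters that match are a description and not evidence of binding.

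For the microRNA, the mature strand and its seed matches in the members are shown because miR-125b was one of the transgenes. The RefSeq sequence is given 5′ to 3′ with the seed, bases 2 to 8, in capitals. The 3′ untranslated regions (UTRs) of the members' annotated transcripts (GENCODE M21) held the 8-letter match CTCAGGGA, in capitals below, in Tapbp, 910 bases after the stop codon in a UTR of 1141 bases, and in Erap1, 2191 bases after it in a UTR of 2472 bases.
mmu-miR-125b-5p: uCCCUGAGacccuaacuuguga
Tapbp: ttctagagacCTCAGGGAcagcccacag
Erap1: gaattcaaaaCTCAGGGAgtgtgatggt
The other 8 members held neither this match nor its 7-letter form CTCAGGG. Among 11506 genes tested with an annotated 3′ UTR, 5.53% held the 8-letter match and 15.7% the 7-letter form.

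Library totals were 31339238 to 38678649 counts for LUC and Arid3a, 31992089 to 40859301 for sh-ctrl, shArid3a and miR-125b, and 16362439 to 19212193 for WT. All 10 members passed the filter on low counts in both tables tested. Levels are in CPM, counts scaled to a common library size by TMM over all 17 libraries, and between genes they are compared per kilobase (kb) of gene length. Arid3a was checked first. It was at 62.1 ± 2.68 CPM (SD, n = 3) in LUC and 65.7 ± 11.1 CPM (n = 3) in the Arid3a group (log2 fold change 0.08, edgeR quasi-likelihood test with Benjamini-Hochberg adjustment, adjusted p = 0.737), so these are called the libraries labelled Arid3a. It fell with shArid3a (log2 fold change -1.43, SE 0.202, edgeR adjusted p = 0.0368) and miR-125b (-2.56, SE 0.183, edgeR adjusted p = 0.000282). The call for shArid3a was lost when ribosomal RNA-like genes or any 1 of 6 libraries (sh-ctrl 2 and 3, miR-125b 2 and 3, both of shArid3a) were left out (edgeR adjusted p up to 0.461). Gata1, the gene targeted by the guide in all Gata1s groups, was not called in any comparison with all libraries and no replicate block (edgeR adjusted p 0.162 to 0.736). It was called with miR-125b under the replicate block (log2 fold change -0.47, adjusted p = 0.046) and for the libraries labelled Arid3a without their replicate 1 (adjusted p = 0.0265), both by edgeR. Its group means were 259 to 475 CPM in the Gata1s groups, and it stood at 66.6 ± 6.04 CPM in WT (SD, n = 3). A guide that shortens the protein need not change the count, so Gata1 checks no label. Of the defining markers, megakaryocyte genes were high in the Gata1s libraries, at a summed 2279 to 4890 CPM for 9 genes, against 898 to 1155 CPM in WT. Hepatocyte markers (4 genes) summed to at most 5.15 CPM in any library.

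The members took 0.278% to 0.382% of the counts of a Gata1s library and 0.714% to 0.749% of those of a WT library. Per kb of the authors' gene length, B2m was the highest member in every group and Calr came next, with no overlap of their libraries. That length is 2880 bases for Calr, whose longest coding transcript has 2184 bases, while B2m has 860 in both. The order of members, that of B2m and Calr included, therefore depends on the length used. In LUC, B2m stood at 460.8 ± 46.4 CPM per kb and Calr at 321.5 ± 17.9 (SD, n = 3). Pdia3, H2-K1 and H2-D1 followed in LUC at 158.5, 146.4 and 130.9 CPM per kb, and neighbours among these overlapped. Well below them came Tapbp at 14.3 CPM per kb, Tap2 at 13.04, Erap1 at 10.3 and Tap1 at 9.18, of which Tapbp overlapped Tap2 and Erap1 overlapped Tap1. Nlrc5 was the lowest member in every group, with 1.83 ± 0.510 CPM per kb in LUC and 9.35 ± 1.51 in WT.

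**Figure D1:**
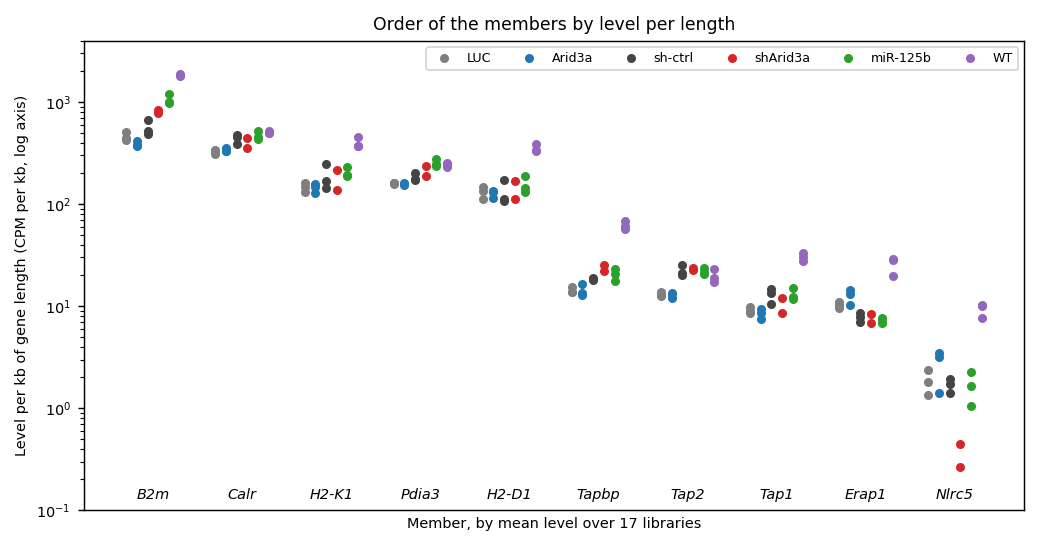
Level of each member per kb of gene length (vertical axis, CPM per kb, log scale) in every library, with members ordered by their mean and groups by colour. B2m is at the top and Nlrc5 at the bottom in all 6 groups, and the shArid3a points of Nlrc5 (mean 0.355 CPM per kb) are the lowest in the plot.

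Neither heavy chain passed the test in any of the 4 comparisons. H2-K1 (chr17:33996017-34000333) was at 649.5, 373 and 437 CPM in sh-ctrl replicates 1 to 3, at 569 and 357 CPM in shArid3a and at 609, 492 and 508 CPM in miR-125b. The sh-ctrl and shArid3a libraries numbered 1 were higher than the others of their groups, and the 3 groups overlapped. The log2 fold change of H2-K1 was -0.09 (SE 0.262, adjusted p = 0.859) with shArid3a and 0.12 (SE 0.233, adjusted p = 0.731) with miR-125b, by edgeR. In LUC it was at 340.0, 388 and 418 CPM and in the libraries labelled Arid3a at 412, 336 and 388 CPM, a log2 fold change of -0.01.

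H2-D1 (chr17:35262730-35267499) was at 449.7, 293 and 276 CPM in sh-ctrl, 431 and 291 CPM in shArid3a, and 489.8, 371 and 338 CPM in miR-125b. Its highest library in each of these groups was again the one numbered 1, and its log2 fold changes were 0.07 with shArid3a and 0.21 with miR-125b (edgeR adjusted p = 0.888 and 0.522). It was at 291, 344 and 377 CPM in LUC and at 346, 299.5 and 338 CPM in the libraries labelled Arid3a. Per kb, H2-K1 exceeded H2-D1 in every library, with group means of the ratio between 1.12 and 1.42. Of the H2-D1 transcript, 4.64% of windows of 100 bases also occur in transcripts of other genes (H2-Q1, Gm7030, H2-T23, Gm11127 and Gm8909), so part of its count is uncertain. No such window was found for H2-K1.

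B2m (chr2:122147686-122153083) rose with miR-125b while the heavy chains it pairs with did not pass the test. It was at 576, 448 and 423 CPM in sh-ctrl and at 1025, 850.3 and 862 CPM in miR-125b, and all 3 miR-125b libraries lay above all 3 of sh-ctrl. The log2 fold change was 0.90 (SE 0.155, edgeR adjusted p = 0.00693), and the call held in 18 of 18 alternative fits (adjusted p 4.17e-06 to 0.0369). In shArid3a B2m was at 675 and 713 CPM, between the other groups and above all sh-ctrl libraries, with a log2 fold change of 0.50 (adjusted p = 0.123 by edgeR, SE 0.171) that did not pass. With miR-125b against shArid3a the log2 fold change was 0.40 (SE 0.174, edgeR adjusted p = 0.327).

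The libraries labelled Arid3a held B2m at 326, 317 and 356 CPM, all below LUC at 381, 367 and 442 CPM. The log2 fold change was -0.25 (SE 0.0904, edgeR adjusted p = 0.176) and did not pass. Where a group's B2m and heavy chains are set against each other within a library, per kb, B2m over the sum of H2-K1 and H2-D1 was 1.80 ± 0.223 in sh-ctrl and 2.96 ± 0.132 in miR-125b (SD, n = 3). The miR-125b ratios, 2.82 to 3.08, lay above those of sh-ctrl, 1.58 to 2.03. The shArid3a libraries had 2.04 and 3.32, LUC 1.51 to 1.82, the libraries labelled Arid3a 1.3 to 1.5 and WT 2.22 to 2.60. The size of this ratio depends on the lengths used. The authors' gene lengths are 2608 bases for H2-K1 and 2579 for H2-D1, and the longest coding transcripts have 1619 and 2102.

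**Figure D2:**
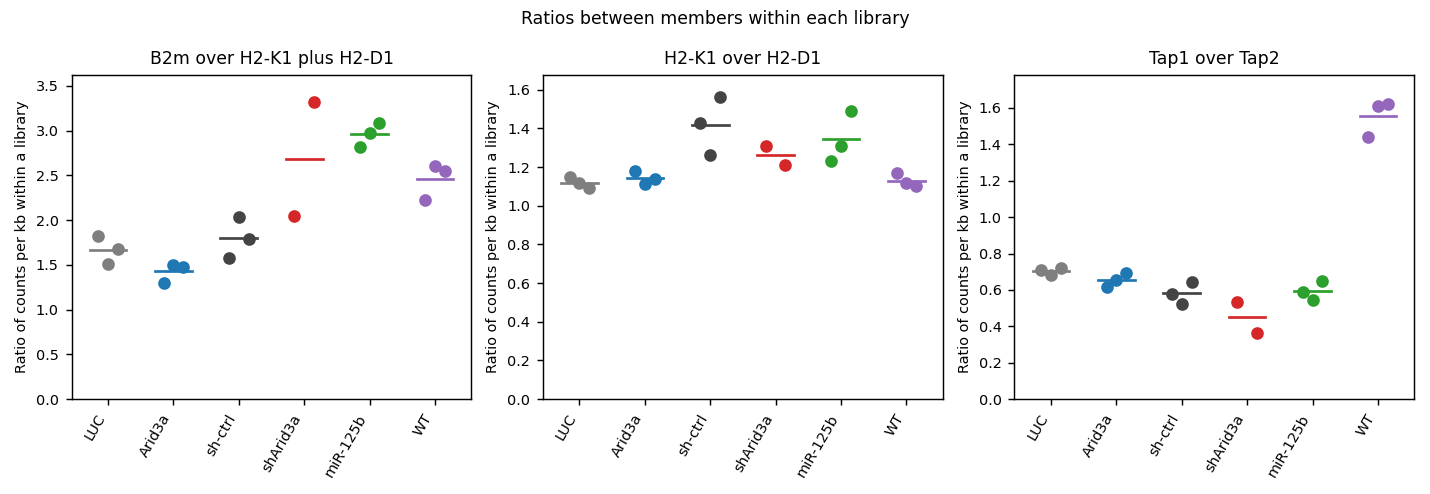
Ratios of counts per kb between members within each library (points; bars are group means) for B2m over H2-K1 plus H2-D1, H2-K1 over H2-D1, and Tap1 over Tap2. The miR-125b libraries have the first ratio at 2.82 to 3.08, and WT has the highest Tap1 over Tap2 of the 6 groups (1.44 to 1.62). Whether that ratio lies above or below 1 depends on the lengths used. The authors' gene lengths are 5476 bases for Tap1 and 3781 for Tap2, and the longest coding transcripts have 2953 and 3442.

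No peptide transport gene passed the test in any comparison. Tap1 (chr17:34187553-34197225), an ATP-binding subunit of the transporter, was at 80.8, 57.2 and 73.6 CPM in sh-ctrl, 65.8 and 47.1 CPM in shArid3a, and 66.9, 64.2 and 83.1 CPM in miR-125b. Its groups overlapped, with log2 fold changes of -0.34 (SE 0.206, edgeR adjusted p = 0.323) with shArid3a and 0.00049 (adjusted p = 0.999) with miR-125b. Tap2 (chr17:34203527-34216321), the partner subunit, was at 75.6 to 96.2 CPM across all 8 libraries of these 3 groups. In LUC and the libraries labelled Arid3a, Tap2 was at 45.5 to 51.8 CPM and Tap1 at 40.6 to 54.1 CPM. Tap1 overlaps Psmb9, and Tap2 overlaps Gm20496 and Gm15821, on the other strand, and the strand setting of the counts is not given in the sources used here.

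Tapbp (chr17:33915899-33929288), which bridges the transporter and the heavy chain and holds a miR-125b seed match, was at 62.2, 59.3 and 61.2 CPM in sh-ctrl. It was at 84.3 and 73.1 CPM in shArid3a, both above sh-ctrl, with a log2 fold change of 0.35 (adjusted p = 0.18 by edgeR, SE 0.151). Tapbp overlaps Zbtb22 on the same strand and Gm19412 on the other, and 0.107% of its windows of 100 bases also occur in AC122861.4. In miR-125b it was at 77.1, 58.1 and 67.8 CPM and overlapped sh-ctrl (log2 fold change 0.13, edgeR adjusted p = 0.496). Erap1 (chr13:74639872-74691875), the other member with a seed match, was at 28.3, 34.6 and 31.3 CPM in sh-ctrl and 30.7, 29.8 and 27.3 CPM in miR-125b, a log2 fold change of -0.12 (edgeR adjusted p = 0.574). Neither gene with a seed match was called with miR-125b, in the 18 alternative fits either.

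Erap1 was at 41.4, 43.7 and 38.6 CPM in LUC and 41.6, 58.3 and 53.4 CPM in the libraries labelled Arid3a. The groups overlapped through replicate 1, and the log2 fold change of 0.31 (adjusted p = 0.211 by edgeR, SE 0.123) did not pass. Without replicate 1 of the libraries labelled Arid3a it was 0.44 and passed (edgeR adjusted p = 0.00464). Erap1 overlaps Cast on the other strand, which limits its count in the same way as Tap1.

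Nlrc5 (chr8:94472763-94527272), the class I activator, varied most, with a 13.3-fold span over the 14 Gata1s libraries against 1.69-fold to 3.24-fold for the other 9 members. It was at 14.9, 10.8 and 13.3 CPM in sh-ctrl, from 338 to 490 counts a library, and at 3.42 and 2.01 CPM in shArid3a, from 114 and 60 counts. Both shArid3a libraries lay below every other library of the series. The log2 fold change with shArid3a was -2.27 (SE 0.39, edgeR adjusted p = 0.0951) and did not pass the threshold of 0.05, which 12 of 14004 genes did (0.0857%). It passed with DESeq2 (adjusted p = 4.68e-08), with no filter on low counts (3.88e-05, edgeR) and without miR-125b replicate 1 (0.0235, edgeR).

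In miR-125b Nlrc5 was at 8.03, 17.4 and 12.54 CPM, overlapping sh-ctrl (log2 fold change -0.06, SE 0.315, edgeR adjusted p = 0.908) and above both shArid3a libraries. Tested directly, Nlrc5 was higher in miR-125b than in shArid3a, by a log2 fold change of 2.22 (adjusted p = 0.0261 by edgeR, SE 0.389). The call was lost with only the groups compared in the fit (edgeR adjusted p = 0.06), without miR-125b replicate 2 (0.0846) or 3 (0.0769), and without shArid3a replicate 1 (0.103) or 3 (0.108). In this comparison 1.35% of the 14004 genes passed, 0.664% higher and 0.686% lower, and Nlrc5 was the only member among them. H2-K1, H2-D1 and Tap1 did not pass there either, with log2 fold changes of 0.21, 0.14 and 0.34 (edgeR adjusted p = 0.791, 0.866 and 0.497).

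Nlrc5 was at 10.2, 13.8 and 17.99 CPM in LUC and at 10.7, 24.5 and 26.8 CPM in the libraries labelled Arid3a, a log2 fold change of 0.56 (adjusted p = 0.406 by edgeR, SE 0.352). Replicate 1 of the libraries labelled Arid3a stood with LUC, and without it the log2 fold change was 0.88 and passed (edgeR adjusted p = 0.0103). Across all 13495 genes of that comparison none passed with all libraries, 0.0%, while 2885 had an unadjusted p under 0.05, DESeq2 called 1198, and edgeR called 3198 without that replicate. The Nlrc5 gene overlaps 9330175E14Rik on the other strand.

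The ER chaperones were among the most abundant members. Calr (chr8:84841850-84846934) was at 1113, 1383 and 1305 CPM in sh-ctrl, 1021 and 1288 CPM in shArid3a and 1261, 1305 and 1500 CPM in miR-125b, and its groups overlapped (log2 fold change with miR-125b 0.08, edgeR adjusted p = 0.734). Pdia3 (chr2:121413775-121438687), whose product ERp57 forms disulphide bonds in the heavy chain, was at 547, 639 and 549 CPM in sh-ctrl and rose to 779, 741 and 875.5 CPM in miR-125b, with no overlap. The log2 fold change was 0.45 (SE 0.144, edgeR adjusted p = 0.0462). This call was lost with the replicate number as a block (edgeR adjusted p = 0.0668), a fit that takes same-numbered libraries as paired. That pairing was inferred from the data and is not settled. The call was also lost in 8 of the other 17 alternatives, among them library totals (0.155) and the omission of sh-ctrl replicate 1 or 3 or any miR-125b library.

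In shArid3a Pdia3 was at 592 and 741 CPM, with a log2 fold change of 0.18 (edgeR adjusted p = 0.499). Calr and Pdia3 in LUC (889 to 985 and 491 to 501 CPM) overlapped those in the libraries labelled Arid3a (961 to 1025 and 486 to 506 CPM). Pdia3 overlaps Catsper2, and B2m overlaps Patl2, on the other strand.

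By comparison, 2 of 10 members were called higher and none lower with miR-125b against sh-ctrl, where 24.4% of all 14004 genes passed, 12.1% higher and 12.2% lower. The median log2 fold change of the members was 0.10, beside -0.03 for all genes tested. With shArid3a 0 of 10 were called by edgeR (2 higher and 1 lower at an unadjusted p under 0.05, and 1 called by DESeq2), and the median was -0.02 beside -0.02. Of all 14004 genes, 1867 were higher and 1749 lower at that unadjusted p, and DESeq2 called 1323. For the libraries labelled Arid3a 0 of 10 were called by edgeR and 0 by DESeq2 (1 higher and 1 lower at an unadjusted p under 0.05), with a median of -0.01 beside 0.01. Of all 13495 genes there, 1472 were higher and 1413 lower at that unadjusted p, and DESeq2 called 1198. The shArid3a and miR-125b comparisons share the sh-ctrl libraries. With scaling by library totals the median of all genes moved to -0.22 in both comparisons with sh-ctrl, and the calls with miR-125b went from 1700 higher and 1714 lower to 890 higher and 2452 lower. B2m stayed called and higher under that scaling (log2 fold change 0.71).

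**Figure D3:**
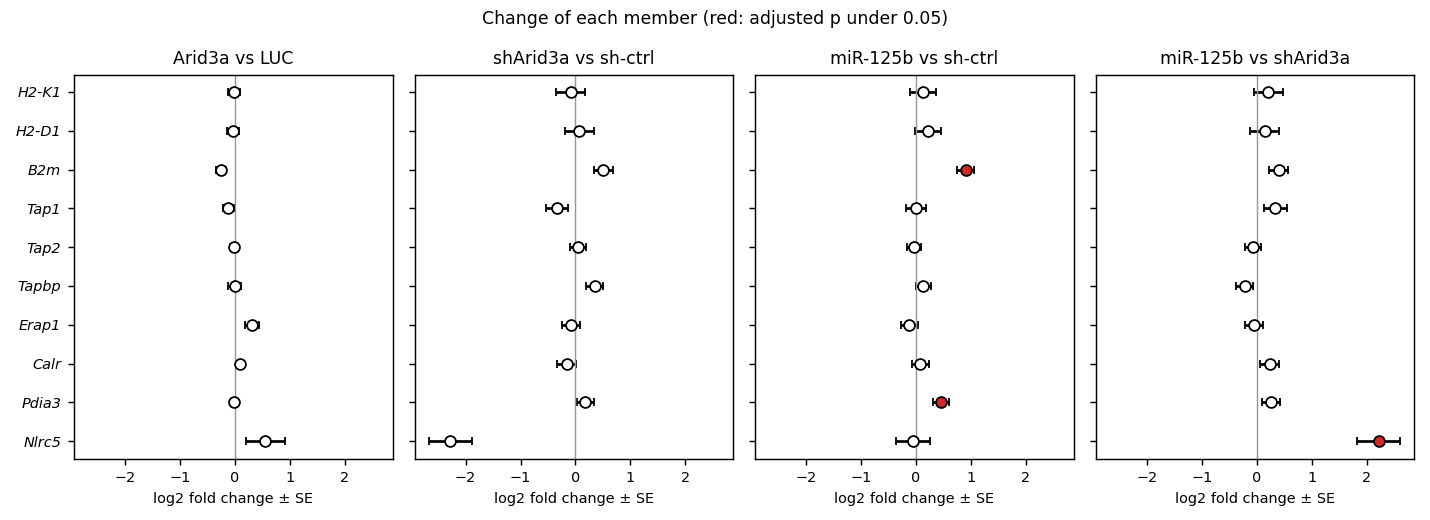
Log2 fold change of each member (points, with bars of 1 SE) in the 4 comparisons, with red points where the edgeR adjusted p was under 0.05. B2m and Pdia3 in miR-125b against sh-ctrl and Nlrc5 in miR-125b against shArid3a are red, and Nlrc5 is the point farthest left with shArid3a (-2.27).

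The neighbouring steps of the pathway were counted from lists. Of 10 genes of the immunoproteasome and peptide supply, 3 rose and 1 fell with miR-125b, beside 12.1% higher and 12.2% lower of all genes, with a median log2 fold change of 0.42 beside -0.03. Psmb10, a catalytic subunit of the immunoproteasome, rose (1.05, edgeR adjusted p = 0.00651), as did Psme1, of the proteasome activator PA28 (0.47, 0.0407), and the peptidase Thop1 (0.48, 0.0409, named because it completes the count). Lnpep, an aminopeptidase of endosomal compartments, fell (-1.65, edgeR adjusted p = 0.00791). The Psmb10 and Lnpep calls held in 18 of 18 alternatives. The Psme1 call was lost under the replicate block and in 8 other alternatives, and the Thop1 call with library totals and without sh-ctrl replicate 1 or 3, any miR-125b library or shArid3a replicate 3. With shArid3a none of the 10 was called by edgeR. At an unadjusted p under 0.05, 2 were higher and 1 lower there, beside 1867 higher and 1749 lower of 14004 genes. Psmb10 and Lnpep had log2 fold changes of 0.65 and -1.29 with shArid3a (edgeR adjusted p = 0.107 and 0.101, each called by DESeq2).

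Of 15 genes of non-classical heavy chains, 11 were tested with miR-125b and 1 fell, a share no higher than the 12.2% of all genes called lower. All 11 had a negative log2 fold change, with a median of -0.57 beside -0.03 for all genes. These signs come from the same libraries. For Cd1d1, H2-Q1, H2-Q6 and H2-Q7 the SE (0.289, 0.675, 1.13 and 1.39) exceeded the change. The call was H2-T24 (-2.86, SE 0.589, edgeR adjusted p = 0.0112), and the next were Mr1, which presents vitamin B metabolites (-1.29, 0.0674), and H2-T23, the mouse Qa-1 chain (-0.41, 0.0905, and called under the replicate block and with library totals). Mr1 was called in 6 of 18 alternatives, among them DESeq2 (adjusted p = 0.00797). The number called lower was 0 with at least 10 counts in every library, 2 with DESeq2 and 3 with the replicate block or library totals. With library totals 2452 of 14004 genes were called lower. H2-T24 has few counts and dropped out of the fit that required at least 10 counts in every library. Against shArid3a, H2-T23 was lower with miR-125b (-0.96, edgeR adjusted p = 0.0341), a call lost without miR-125b replicate 2 or 3 or either shArid3a library. With shArid3a against sh-ctrl H2-T23 had a log2 fold change of 0.55 (edgeR adjusted p = 0.121) and was not called. The shArid3a libraries lay above all of sh-ctrl, so this difference holds a higher level in shArid3a as well as a lower one in miR-125b.

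Of 18 regulators of class I transcription tested, 1 rose and 3 fell with miR-125b, a share near the 24.4% called over all genes and so no result about the regulators, with a median of -0.11. Among the subunits of the Y box factor NF-Y, Nfyc rose (0.66, edgeR adjusted p = 0.0114), Nfya fell (-0.82, 0.0142) and Nfyb was not called (-0.06, 0.767). Stat2 (-0.94, edgeR adjusted p = 0.0395) and Irf9 (-0.55, 0.043, which completes the count), partners in the complex that interferon activates, fell. The Irf9 call was lost in 7 of 8 fits with a library left out (edgeR adjusted p up to 0.124, held only without miR-125b replicate 3). The Stat2 call was lost without sh-ctrl replicate 1 or 3 or miR-125b replicate 1 (up to 0.134). With shArid3a these were at -0.998 and -0.81 (edgeR adjusted p = 0.12 and 0.0989), not called, and both were called by DESeq2.

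Of 15 ER folding genes, 2 rose with miR-125b, Creld2 (0.86, edgeR adjusted p = 0.013) and Prkcsh, a glucosidase subunit (0.45, 0.0388), which is near the 12.1% of all genes called higher, with a list median of 0.07. The Prkcsh call was lost with library totals and without sh-ctrl replicate 1 or 3 or any miR-125b library. Hspa5, the main ER chaperone of the stress response, was not called (0.07, edgeR adjusted p = 0.789). Of 8 class II genes tested, H2-DMa (0.83, edgeR adjusted p = 0.0153) and H2-DMb2 (1.95, 0.0201), chains of the peptide exchange factor, rose, and Ciita, the class II counterpart of Nlrc5, fell (-3.49, 0.0249), beside 12.1% higher and 12.2% lower of all genes. The H2-DMa call was also lost with library totals, that of H2-DMb2 without miR-125b replicate 2 or 3 and that of Ciita without miR-125b replicate 1 or 2. H2-DMb2 and Ciita have few counts and dropped out of the fit that required at least 10 counts in every library. Without sh-ctrl replicate 3, when edgeR called 734 genes in all, every call of these neighbouring lists with miR-125b was lost except those of Psmb10 and Lnpep. With shArid3a edgeR called none of the 62 genes tested in these 5 lists. At an unadjusted p under 0.05, 9 were higher and 6 lower, beside 1867 higher and 1749 lower of all 14004 genes. DESeq2 called 7 in the lists and 1323 genes in all. Among the 7 were H2-DMa (0.78, edgeR adjusted p = 0.101) and H2-DMb2 (1.67, 0.112), with values from the edgeR fit. Both were higher in all shArid3a libraries than in all of sh-ctrl, so their rise is not particular to miR-125b. Ciita was at -0.20 with shArid3a (edgeR adjusted p = 0.905). For the libraries labelled Arid3a edgeR called none of 56 tested either. At the same unadjusted p there were 7 higher and 7 lower, beside 1472 higher and 1413 lower of all 13495 genes. Over all genes DESeq2 called 1198 in that comparison. DESeq2 called Lnpep (0.74), Psmb10 (-0.42), Psme1 (-0.34) and Uggt1 (0.45) there, with values given from the edgeR fit (edgeR adjusted p 0.0908 to 0.112).

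**Figure D4:**
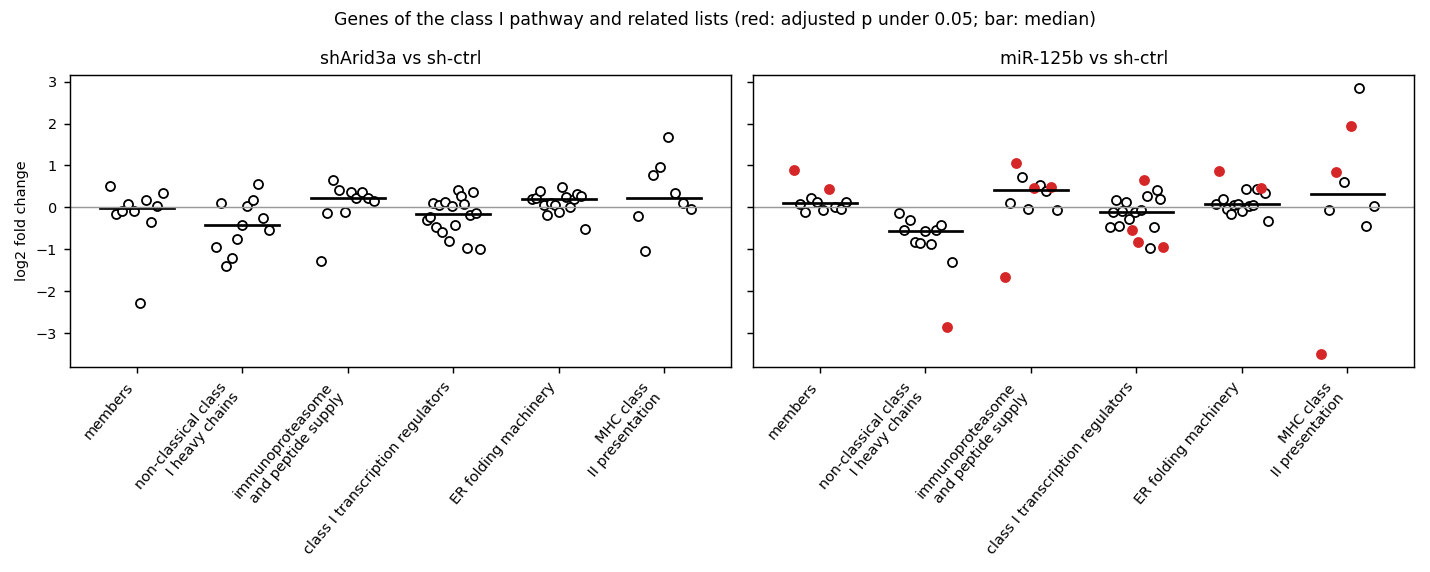
Log2 fold changes of the tested genes of each list (points, red where the edgeR adjusted p was under 0.05; bars are medians) with shArid3a and with miR-125b, each against sh-ctrl. With miR-125b all 11 non-classical heavy chain genes lie below 0, and the lowest red point of all is Ciita at -3.49. Ciita had under 10 counts in some library.

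Markers of other cell types moved beside these results. With miR-125b the 5 mast cell and basophil markers summed to 21.6 to 290.2 CPM, against 5.40 to 39.9 CPM in sh-ctrl, which overlap. Of these 5, 2 were called higher. Erythroid markers summed to 190 to 233 CPM against 341 to 623 CPM. Of 9 megakaryocyte markers 1 was called higher and 4 lower. Over all genes 12.1% were called higher and 12.2% lower. Afp, the 1 hepatocyte marker tested, was called higher (log2 fold change 2.5), where the 4 hepatocyte markers summed to 3.30 to 5.15 CPM in miR-125b. Macrophage markers summed to at most 2.60 CPM and dendritic cell markers to at most 2.11 CPM in these groups, with C1qb, C1qc, Marco and Siglech at 0 counts in sh-ctrl. The part of these markers in the results for B2m and Pdia3 was not tested. In such bulk samples fewer cells of a type and less RNA per cell cannot be told apart.

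The WT libraries stood apart for most members. B2m was at 1623, 1586 and 1557 CPM in WT against 317 to 1025 CPM over the 14 Gata1s libraries. H2-K1 was at 1198, 977 and 969 CPM against 336 to 650 CPM, and H2-D1 at 1012, 860 and 872 CPM against 276 to 490 CPM. Nlrc5 was at 58.1, 78.7 and 77.6 CPM against 2.01 to 26.8 CPM, a ratio of group means of 5.37. Each of these genes was higher in all WT libraries than in all Gata1s libraries.

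The same held for Tapbp (187 to 225 CPM in WT, ratio 3.47), Tap1 (153 to 184 CPM, 2.84) and Erap1 (79.2 to 117 CPM, 2.79). Tap2 did not follow Tap1. Its WT level of 65.5 to 87.8 CPM overlapped the Gata1s libraries (ratio 1.08), and Tap1 over Tap2, per kb, was 1.56 ± 0.0991 in WT (SD, n = 3) against group means of 0.449 to 0.704. Calr (1438 to 1509 CPM) and Pdia3 (720 to 793 CPM) in WT also overlapped the Gata1s libraries, with ratios of 1.29 and 1.26.

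So 7 of 10 members were higher in all WT libraries and 0 lower, while over 14054 genes 19.4% were higher and 18.3% lower in the same way. The number of members was 9 with library totals and 8 with RLE scaling, where Calr, and with library totals Pdia3, joined the 7. Over all genes the share higher was then 22.7% with library totals and 21.4% with RLE scaling. The median log2 ratio of the members was 1.43 beside -0.11 for all genes. The WT libraries were counted in a table of their own and differ from the others in guide, second transgene and doxycycline at once, which cannot be told apart, so no test was made.

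Cell type markers differed in the same libraries. The 8 macrophage markers summed to 282 to 336 CPM in WT and 0.210 to 2.94 CPM in the others, and 6 of 8 reached 1 CPM in some WT library. Dendritic cell markers (5) summed to 40.0 to 53.8 CPM against at most 2.11, mast cell and basophil markers (5) to 488.5 to 569.9 CPM against 1.81 to 290.2, and lymphoid markers (7) to 12.3 to 18.8 CPM against at most 3.25, with Cd3e and Ncr1 at 0 counts in WT. Of the 7 lymphoid markers, 6 were under 1 CPM in every WT library. The same held for 2 of the 5 dendritic cell markers and 1 of the 5 mast cell and basophil markers. The 10 class II genes, markers of antigen-presenting cells, summed to 69.7 to 90.1 CPM in WT against 8.66 to 54.5 CPM. The part of these cells in the WT levels was not tested.

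**Figure D5:**
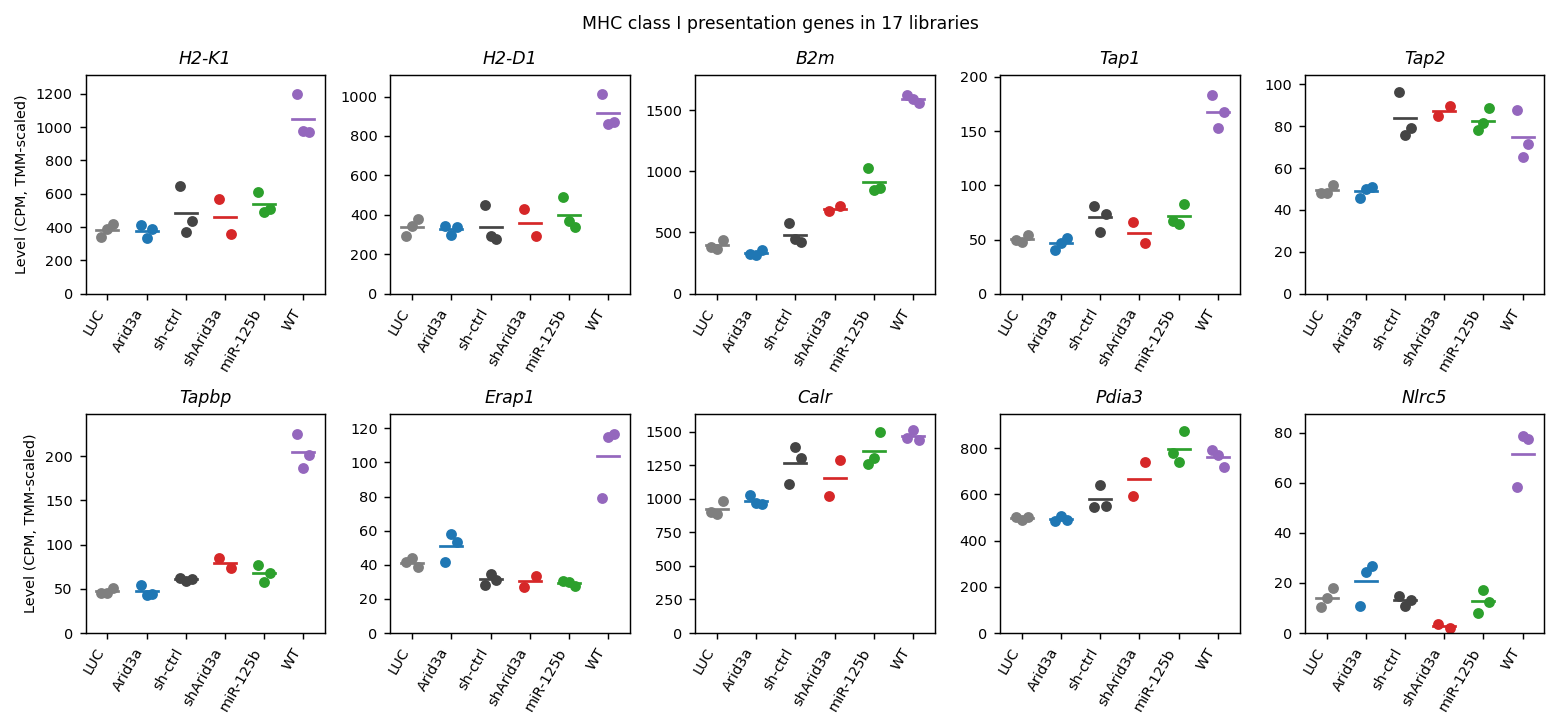
Level of each member in CPM (vertical axes start at 0) in every library (points) with group means (bars). WT points are above all others for H2-K1, H2-D1, B2m, Tap1, Tapbp, Erap1 and Nlrc5, while those of Tap2, Calr and Pdia3 overlap other groups.

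The controls LUC and sh-ctrl also differed. Tap1, Tap2, Tapbp, Calr and Pdia3 were higher in all sh-ctrl libraries than in all LUC libraries and Erap1 was lower, 5 and 1 of 10, beside 18.9% of genes higher and 20.1% lower. Tap2 had the highest ratio of means, 1.70 (83.7 ± 11 CPM in sh-ctrl and 49.3 ± 2.12 CPM in LUC, SD, n = 3), and Erap1 the lowest, 0.761. With library totals 3 of 10 were higher and 1 lower, beside 13.8% of genes higher and 28.2% lower. These controls differ in table, transgene and time in doxycycline, which cannot be told apart.

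Across the 14 Gata1s libraries, with each gene centred within its table, the profile nearest to H2-K1 among 8830 genes of mean log2 CPM at least 3 was that of H2-D1 (root mean square difference 0.0982 log2 units), followed by Usp21 (0.117) and Ppm1m (0.122). These 14 values share libraries and depth, so the distances are a description. Nearest to B2m were Ndufs5 (0.108), Polr2f (0.109) and Tex264 (0.11), and no member. Nearest to Tap1 were Mier3 (0.115), Zfp710 (0.128) and Aagab (0.138), with Tap2 at rank 143 and H2-K1 at rank 215. Nearest to Calr were Edem1 (0.0777), Nub1 (0.0823) and Mia3 (0.0861), with Pdia3 at rank 315. Tap1 stood at rank 93 from H2-K1.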

How the data were processed

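Values in the tables deposited by the authors are unnormalized counts of reads per gene (all whole numbers), together with a gene length column (in bases) by the authors. Per the submitters' processing notes, fastp, HISAT2 2.0.5, featureCounts and mm10 were used. Strand setting, treatment of multimapped reads and annotation release are not given in the sources used here. The 3 tables were joined by Ensembl identifier (46880 genes), since 3098 gene names differ between 2 of them. No pair of libraries held identical values (0 found). Each table was fitted whole in edgeR 4.0.16 (R 4.3.3) with TMM scaling, filterByExpr, 1 term per group and the quasi-likelihood test, and genes with a Benjamini-Hochberg adjusted p under 0.05 were called. CPM were computed over all 17 libraries, and log scales used a prior count of 2. The code was tested on simulated data. Intervals of counting error were not used. Counts carry no molecular identifiers.

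The members and lists were chosen with earlier results of these data known. All members are named. Genes of the neighbouring lists were named from the 3 with the smallest adjusted p in a comparison. Not all of these are named for every comparison, so a gene that is absent need not rank lower. Nfyb, Hspa5 and genes that complete a count were added, chosen after their values were seen. Same-numbered sh-ctrl and miR-125b libraries deviated together (correlations of deviations from group means 0.427, 0.151 and 0.294), so a replicate block was fitted as an alternative. The correlation of miR-125b replicate 2 was higher with sh-ctrl replicate 3 (0.205) than with sh-ctrl replicate 2, so a pairing is not settled. The main fit took no pairing. Alternatives were RLE, upper-quartile and library-total scaling, DESeq2 1.42.0, filters, a robust fit, a replicate block, 361 ribosomal RNA-like genes left out, only the groups compared, and each library left out. Figures were drawn with matplotlib 3.10.9.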

Additional observations from a re-analysis of the deposited data

How the results depend on the processing

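Under every alternative listed in the processing summary, B2m stayed called with miR-125b and kept its direction in the 4 comparisons. The number of members called with miR-125b was 2, and 1 with library totals, upper-quartile scaling, no filter or the replicate block (1 to 2 with a library left out), with Pdia3 the gene lost. With shArid3a it was 0, and 1 (Nlrc5) with DESeq2 or no filter (0 to 1 with a library left out). For miR-125b against shArid3a it was 1, and 0 with only the groups compared (0 to 1 with a library left out), and for the libraries labelled Arid3a 0 (0 to 2 with a library left out).

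The number of all genes called was 0 for the libraries labelled Arid3a, and 2 with upper-quartile scaling, 1198 with DESeq2, 71 with no filter and 0 to 3198 with a library left out, the last without replicate 1 of the libraries labelled Arid3a. With shArid3a it was 12, and 20 with library totals, 1323 with DESeq2, 1237 with no filter, 19 with at least 10 counts in every library, 19 with a robust fit, 0 without ribosomal RNA-like genes and 2 to 306 with a library left out. With miR-125b it was 3414 (734 to 3452 with a library left out), and for miR-125b against shArid3a 189, 737 with DESeq2, 715 with no filter and 12 to 329 with a library left out. Why these counts moved was not tested.

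Directions turned only for genes with log2 fold changes near 0, none of them called. For the libraries labelled Arid3a, Tapbp was 0.0055 with RLE, 0.0036 with DESeq2, 0.0012 with no filter, 0.0018 with at least 10 counts and 0.037 with library totals, under which H2-K1 was 0.028, Tap2 0.027 and Pdia3 0.030. With shArid3a and library totals, H2-D1 was -0.105, Tap2 -0.15 and Pdia3 -0.015. With miR-125b and library totals, H2-K1 was -0.072, Tap1 -0.19, Tapbp -0.065, Calr -0.11 and Hspa5 -0.12. Tap1 was also -0.036 with upper-quartile scaling, -0.0013 with no filter, -0.023 with at least 10 counts, -0.0070 without ribosomal RNA-like genes and -0.0037 with only the groups compared.

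With a library left out, log2 fold changes that crossed 0 ran, for the libraries labelled Arid3a, from -0.091 to 0.072 for H2-K1, -0.14 to 0.048 for H2-D1, -0.043 to 0.038 for Tap2, -0.11 to 0.070 for Tapbp, -0.022 to 0.0044 for Pdia3 and -0.019 to 0.21 for Arid3a. With shArid3a they ran from -0.48 to 0.23 for H2-K1, -0.26 to 0.35 for H2-D1, -0.041 to 0.13 for Tap2 and -0.20 to 0.045 for Erap1. With miR-125b they ran from -0.039 to 0.37 for H2-K1, -0.13 to 0.094 for Tap1, -0.11 to 0.062 for Tap2, -0.36 to 0.18 for Nlrc5, -0.021 to 0.14 for Calr, -0.12 to 0.024 for Nfyb and -0.088 to 0.19 for Hspa5. For miR-125b against shArid3a they ran from -0.11 to 0.61 for H2-K1, -0.13 to 0.48 for H2-D1 and -0.16 to 0.081 for Erap1.

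Replicate numbers as a block left the number of all genes called at 0, 15, 3687 and 255 in the comparisons of the libraries labelled Arid3a, shArid3a and miR-125b with their controls and of miR-125b with shArid3a. Same-numbered libraries of LUC and Arid3a had correlations of deviations of 0.158, 0.365 and 0.0084, which does not show a pairing, and for shArid3a only 2 numbers are shared. Beside the block's changes given in the report for Pdia3, Psme1 and H2-T23, it changed no other call among the named genes except Gata1 with miR-125b (adjusted p = 0.046 by edgeR). With 60 to 114 counts a library, Nlrc5 in shArid3a rests on the fewest reads of any member.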
